A study of Mus musculus with 36 samples.

Results

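The haem and iron handling genes described here are Hmox1, Blvrb, Fth1, Ftl1, Tfrc, Slc11a1, Slc11a2 and Slc40a1. These 8 genes were chosen by symbol from a table of 27562 genes measured by RNA-seq in AΦ (alveolar macrophages) and monocytes sorted from mouse lung. Their symbols matched 9 rows, because a second row on chromosome 8 was also listed as Fth1. GENCODE names the gene ID of that row Fth-ps3, a processed pseudogene, and its values are given separately. In the deposited table the level of a gene is given in FPKM, its fragments scaled for the length of the transcript and for the depth of the library.

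There were 36 libraries in 12 groups, with 3 mice in each group. All mice were chimeras made from male C57BL/6J (CD45.2) hosts, which were irradiated with the chest shielded, given busulfan and transplanted with marrow carrying CD45.1. TR-AΦ (tissue-resident AΦ) carried the CD45.2 of the host and BM-AΦ (bone marrow-derived AΦ) carried the CD45.1 of the donor. Mice breathed FA (filtered air) or concentrated ambient PM2.5 (fine particulate matter) for 4-weeks or 32-weeks. TR-AΦ and CD45.2 monocytes were sequenced at 4-weeks, and AΦ and monocytes of both origins at 32-weeks, each from FA and from PM2.5 mice. For the 32-weeks monocytes the labels give the numbers 1 and 2 and no CD45 form, so they are called monocytes 1 and monocytes 2. By the key given for AΦ they would be CD45.1 and CD45.2, and the comparison of monocytes 2 with the CD45.2 monocytes of 4-weeks rests on that reading. The shield covers the lung so that resident AΦ are kept, and all groups, controls included, shared this treatment.

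Macrophages obtain iron by taking up haem, transferrin and particles. Haem oxygenase 1 (Hmox1) opens the haem ring to release iron and the pigment biliverdin. Blvrb encodes biliverdin reductase B. Free iron is stored in ferritin, a shell of heavy (Fth1) and light (Ftl1) chains, or leaves the cell through ferroportin (Slc40a1), the only known iron exporter of mammalian cells. Tfrc is the receptor for transferrin-bound iron, and the transporters Slc11a2 (DMT1) and Slc11a1 (NRAMP1) move divalent metals out of endosomes and phagosomes. When iron is scarce, iron regulatory proteins bind a hairpin called the iron responsive element, which blocks translation from a 5′ UTR and protects the mRNA from decay in a 3′ UTR.

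The hairpin letters of this element were found in 4 of the 8 genes, and are shown because they sit in the 5′ UTR of the ferritin chains and of ferroportin but in the 3′ UTR of the transferrin receptor. The letters searched on the sense strand of GENCODE transcripts (GRCm38, the assembly also called mm10) were a C, 5 bases, CAGTGN, and 5 bases able to pair with the first 5. Capitals mark the loop CAGTGN.
Fth1 5′ UTR, chr19:9982732-9982761 (+): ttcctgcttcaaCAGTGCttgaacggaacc
Ftl1 5′ UTR, chr7:45459778-45459807 (−): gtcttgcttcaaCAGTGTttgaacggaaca
Slc40a1 5′ UTR, chr1:45925464-45925493 (−): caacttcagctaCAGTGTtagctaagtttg
Tfrc 3′ UTR, chr16:32631219-32631248 (+): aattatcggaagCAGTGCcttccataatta
Tfrc 3′ UTR, chr16:32631598-32631627 (+): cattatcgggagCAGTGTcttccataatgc
Both ferritin chains carried the same stem around the loop, and the stems of Slc40a1 and Tfrc differed from it. Tfrc held 4 such matches in its 3′ UTR, of which the first and the second are printed. A match was present in the 5′ UTR of 28 of 20890 genes (0.134%) and in the 3′ UTR of 127 of 20998 genes (0.605%). These letters were not found in the UTRs of Hmox1, Blvrb, Slc11a1 and Slc11a2 that were searched. The search allowed no unpaired base among the 5 bases on each side of the loop, so a hairpin with one would be missed. A gene without a match may therefore still carry the element.

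The genes lie on 6 chromosomes of mm10. Hmox1 was listed at chr8:75093591-75100596, Fth1 at chr19:9982703-9985092, Tfrc at chr16:32608920-32632794 and Slc11a2 at chr15:100387898-100428150. Chromosome 1 held both Slc40a1 (chr1:45908068-45925582) and Slc11a1 (chr1:74375195-74386062). Blvrb (chr7:27447978-27466144) and Ftl1 (chr7:45457944-45460300) were both on chromosome 7.

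AΦ and monocyte markers parted the sorted cells as labelled, with a limit for monocytes 2 given below. Summed FPKM of the AΦ markers listed (13 of 14 present, such as Siglecf, Marco and Chil3) were between 6404 and 13894 in AΦ and between 290 and 1661 in monocytes. Summed FPKM of the 9 monocyte markers (such as Ly6c2 and Ccr2) were between 105 and 574 in AΦ and between 1185 and 4406 in monocytes. Libraries stood apart in other markers. At 4-weeks the 4 libraries of replicate 2 had neutrophil marker sums between 28.8 and 1048. Monocytes 2 had sums of interstitial and recycling macrophage markers (C1qa and Cd163 among them) between 907 and 3493, against 329 to 1067 in monocytes 1. In monocytes 2 these sums were above the monocyte marker sums of the same library in FA replicate 0 (3493 against 1185) and PM2.5 replicate 1 (3007 against 1632). In the rest of monocytes 2 they were below, though near in FA replicate 1 (2054 against 2112). Red cell marker sums were between 1.7 and 5.38 FPKM in replicate 2 of 4-weeks and between 9.78 and 163 FPKM in the other libraries of that time, and at 32-weeks between 20.6 and 91.6 FPKM in replicate 2 and between 2.66 and 25.6 FPKM in the others. These values are given again beside the genes they moved with. In sorted bulk RNA, fewer cells of a type and less RNA per cell cannot be told apart.

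**Figure D1:**
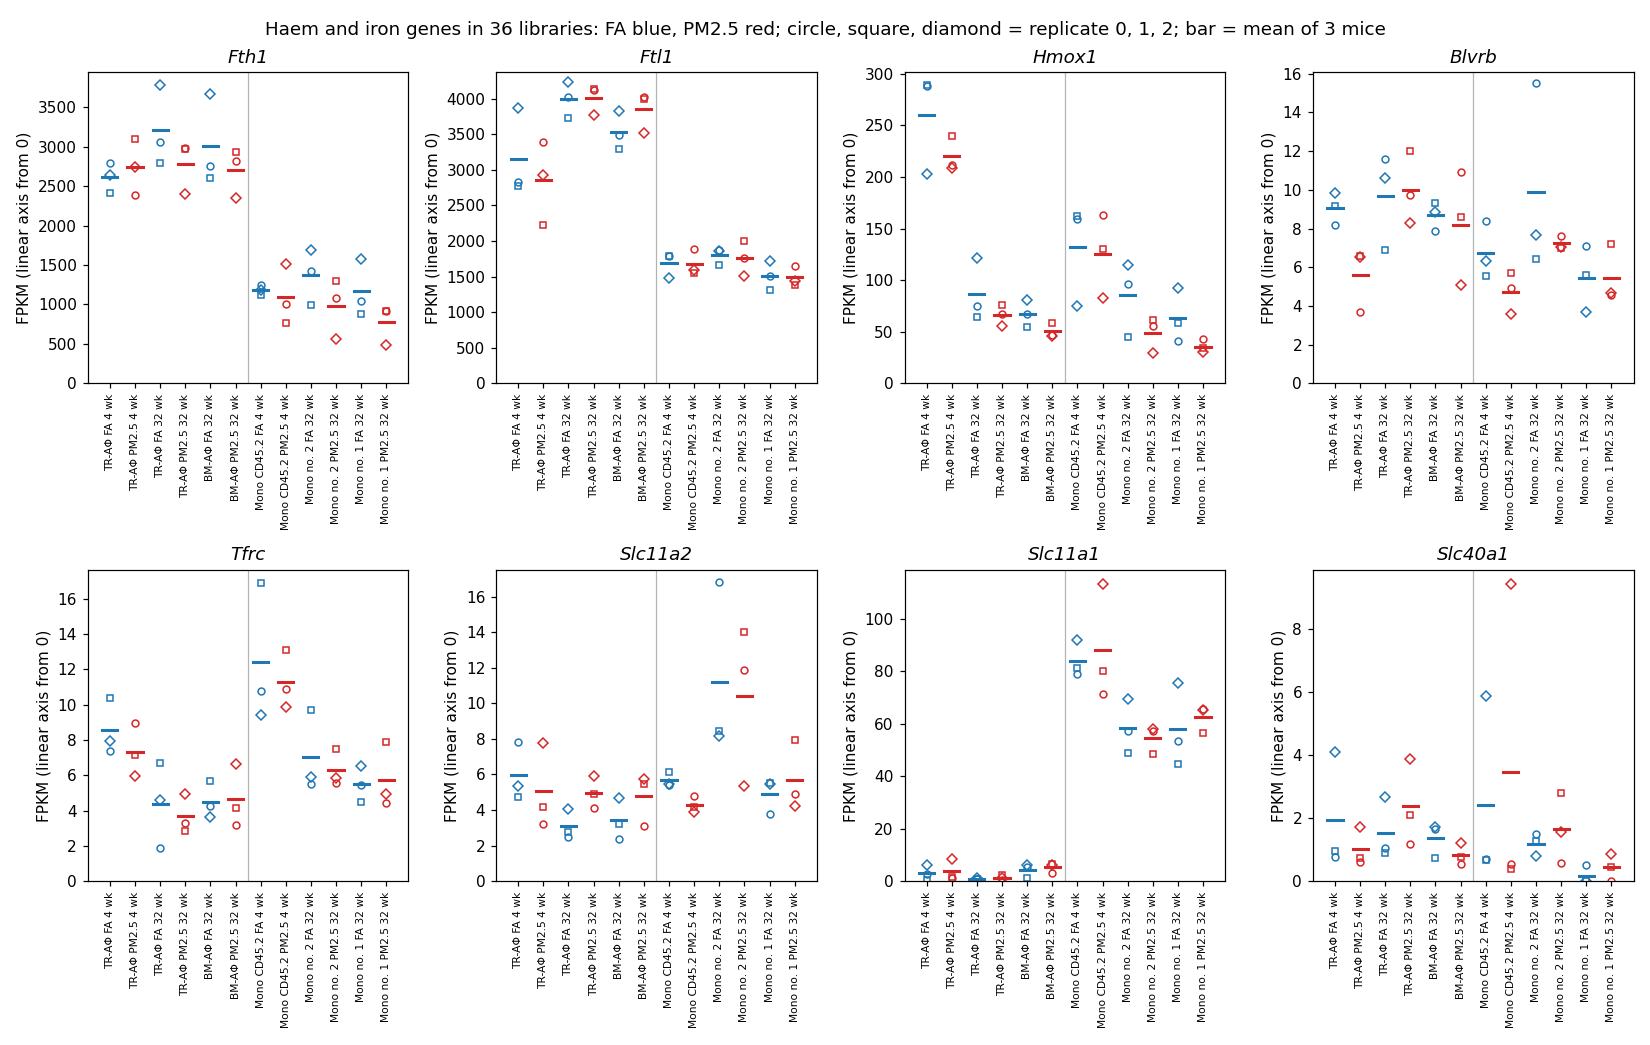
FPKM (linear axes from 0) of the 8 genes in each of the 36 libraries, by group; circles, squares and diamonds are replicates 0, 1 and 2, bars are means of 3 mice, FA is blue and PM2.5 red, and the grey line parts AΦ from monocytes. Fth1 and Ftl1 are higher in all AΦ libraries than in any monocyte library, Slc11a1 is the reverse, and Hmox1 is highest in the TR-AΦ of 4-weeks.

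Fth1 and Ftl1 were by far the most abundant of the 8 genes. Fth1 was between 2343 and 3782 FPKM in the 18 AΦ libraries (median 2793) and between 490 and 1691 FPKM in the 18 monocyte libraries (median 1063). Ftl1 was between 2226 and 4229 FPKM in AΦ (median 3752) and between 1307 and 1998 FPKM in monocytes (median 1658). No AΦ library overlapped a monocyte library in either chain. In the ranking of all genes by FPKM, Ftl1 stood between 70th and 128th in AΦ and between 156th and 215th in monocytes. Fth1 stood between 75th and 129th in AΦ and between 182nd and 386th in monocytes. Both chains together held between 0.218% and 0.435% of all FPKM in AΦ libraries and between 0.0707% and 0.142% in monocyte libraries. The ratio of Fth1 to Ftl1 FPKM overlapped between the cell types, at 0.636 to 1.39 in AΦ (median 0.753) and 0.339 to 0.944 in monocytes (median 0.657).

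The other genes were expressed at far lower levels. Hmox1 was between 45.6 and 289 FPKM in AΦ and between 29.3 and 163 FPKM in monocytes. Slc11a1 was between 0.302 and 8.4 FPKM in AΦ and between 44.7 and 113 FPKM in monocytes, a gap that no library crossed. Blvrb (3.58 to 15.5 FPKM over the 36 libraries), Tfrc (1.88 to 16.9) and Slc11a2 (2.38 to 16.8) were low in both cell types. Slc40a1 was the lowest, between 0.556 and 4.11 FPKM in AΦ and between 0 and 9.42 in monocytes, where 3 libraries, all of monocytes 1, listed it at 0. When the 12 groups were ordered by their mean, at most 2 of the 11 steps between neighbours (for Slc11a1) were free of overlap between the libraries. Hmox1, Fth1 and Ftl1 each had 1 such step, and Tfrc, Slc11a2, Slc40a1 and Blvrb had 0.

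The first comparison was between AΦ and monocytes, of the same time point and number, with FA and PM2.5 libraries pooled (6 libraries against 6). Ferritin was higher in AΦ in all 3 of these comparisons and Slc11a1 was lower. Hmox1 was higher in TR-AΦ than in monocytes at 4-weeks, and no such difference passed the test at 32-weeks. Tests were made with limma on log2(FPKM + 1), which is the scale of all log2 fold changes given, and a gene was called at a Benjamini-Hochberg adjusted p under 0.05. At 4-weeks 5 of the 8 genes were called (3 higher and 2 lower in AΦ), and 48.2% of all genes tested were called (22.6% higher and 25.5% lower). Of the 8 genes, 4 were called for BM-AΦ against monocytes 1 (3 higher and 1 lower), where 50.9% of all genes were (27.1% higher and 23.8% lower). For TR-AΦ against monocytes 2, 5 were called (2 higher and 3 lower), where 47.3% of all genes were (23.6% higher and 23.7% lower). These shares of called genes were near or a little above those of all genes. The median log2 fold change of the 8 genes was 0.19, 0.43 and 0.24 in the 3 comparisons, and that of all genes was -0.019, 0.028 and 0.000.

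Fth1 was 2794, 2411 and 2640 FPKM in the FA TR-AΦ of 4-weeks and 1249, 1125 and 1188 FPKM in the FA monocytes of that time. The log2 fold change of Fth1 at 4-weeks, FA and PM2.5 pooled, was 1.26 (SE 0.21, limma adjusted p = 1.29e-05). At 32-weeks it was 1.62 for BM-AΦ against monocytes 1 (SE 0.21, limma adjusted p = 2.6e-07) and 1.42 for TR-AΦ against monocytes 2 (SE 0.21, limma adjusted p = 2.35e-06). The heavy chain, which carries the ferroxidase activity of ferritin, was therefore 2.39-fold, 3.08-fold and 2.67-fold higher in AΦ. For Ftl1, the light chain, which helps form the iron core, the log2 fold changes were 0.82, 1.30 and 1.18 (each SE 0.12, limma adjusted p at most 2.88e-06). Neither chain overlapped between AΦ and monocytes in any of the 3 comparisons. Of the 8 genes, 4, 3 and 3 did not overlap, against 29.8%, 30.8% and 26.9% of all genes tested.

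Ferritin has near-identical copies in the genome, and reads may be shared between them. In the reference, 73.4% of the 50-base windows of the Ftl1 transcript were found letter for letter in Ftl1-ps1, a processed copy of the light chain, which the table lists as Gm10116. Gm10116 was between 455 and 1398 FPKM in AΦ and between 359 and 593 FPKM in monocytes, so the level of Ftl1 is uncertain by reads that the counting could have split. Its log2 fold changes of AΦ against monocytes were 0.74, 1.29 and 1.31, close to those of Ftl1. None of the 50-base windows of Fth1 (0 of 880) was found in Fth-ps2 or Fth-ps3. The Fth-ps3 row was between 0 and 19.2 FPKM (median 3.74) and was listed at 0 in 8 of the 36 libraries. It was higher in AΦ at 4-weeks and in BM-AΦ against monocytes 1 (log2 fold changes 2.10 and 2.25, each SE 0.44), and not called in TR-AΦ against monocytes 2 (0.64).

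Slc11a1 pumps metal ions out of the phagosome of macrophages and neutrophils, and was the gene of the 8 that differed most between the cell types. In TR-AΦ of 4-weeks it was 2.64, 0.491 and 6.13 FPKM with FA, and with PM2.5 it was 1.35, 1.6 and 8.4 FPKM. The monocytes of the same time had 78.7, 81.2 and 92 FPKM with FA, and 71.3, 79.9 and 113 FPKM with PM2.5. Every AΦ library was below every monocyte library, and replicate 2 was the highest in all 4 groups. In log2 terms the difference was -4.57 (SE 0.34, limma adjusted p = 1.11e-11) at 4-weeks, -3.50 (SE 0.34, limma adjusted p = 2.14e-09) for BM-AΦ against monocytes 1 and -4.87 (SE 0.34, limma adjusted p = 3.74e-12) for TR-AΦ against monocytes 2. Beside the AΦ values of replicate 2, the monocyte marker sums of these libraries were 519 and 574, against 215 to 343 in the other TR-AΦ libraries of 4-weeks. Their neutrophil marker sums were 28.8 and 60.1, against 8.73 to 15.6 in the others. In monocytes of 4-weeks the neutrophil marker sums were 343 and 1048 in replicate 2, against 24 to 51.7. The part of these markers in the result was not tested. Without all libraries of replicate 2, Slc11a1 was called in all 3 comparisons.

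Hmox1 was 288, 289 and 203 FPKM in TR-AΦ of FA mice at 4-weeks, and 212, 240 and 209 FPKM in those of PM2.5 mice. The CD45.2 monocytes of 4-weeks had 159, 162 and 75 FPKM with FA, and 163, 130 and 82.6 FPKM with PM2.5. All TR-AΦ libraries were above all monocyte libraries at this time, by a log2 fold change of 0.95 (SE 0.25, limma adjusted p = 0.00238), or 1.93-fold. At 32-weeks the log2 fold changes were 0.32 for BM-AΦ against monocytes 1 (95% CI -0.19 to 0.83) and 0.28 for TR-AΦ against monocytes 2 (95% CI -0.23 to 0.79), the libraries overlapped, and neither passed the test. The values of TR-AΦ against monocytes at 4-weeks and at 32-weeks were not shown to differ from each other (32-weeks minus 4-weeks -0.67, 95% CI -1.39 to 0.06, limma adjusted p = 0.298). Hmox1 of BM-AΦ against monocytes 1 was called after rescaling to TPM, where its log2 fold change was 0.69.

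Tfrc, which brings in transferrin iron, was lower in TR-AΦ than in monocytes 2 at 32-weeks (log2 fold change -0.65, SE 0.21, limma adjusted p = 0.0109). At 4-weeks the difference was -0.51 (SE 0.21, limma adjusted p = 0.0426), and this call was lost under 6 of 10 other settings and without 7 of the 12 libraries in turn. In BM-AΦ against monocytes 1 it was -0.25 (95% CI -0.68 to 0.17). Slc11a2, which carries iron from the endosome to the cytosol, was lower in TR-AΦ than in monocytes 2 (log2 fold change -1.19, SE 0.22, limma adjusted p = 5.72e-05), and did not pass the test at 4-weeks (0.09, 95% CI -0.36 to 0.54) or in BM-AΦ against monocytes 1 (-0.32, 95% CI -0.77 to 0.13). Blvrb was higher in BM-AΦ than in monocytes 1 by 0.55 (SE 0.19, limma adjusted p = 0.0207), with overlap between the libraries, and its log2 fold changes in the other comparisons were 0.29 and 0.22 and not called. The call in BM-AΦ was lost after quantile normalization (limma adjusted p = 0.0628), without all libraries of replicate 2 (0.102), and without PM2.5 BM-AΦ replicate 0 (0.072), FA monocytes 1 replicate 2 (0.0721) or PM2.5 monocytes 1 replicate 0 (0.0509). Slc40a1 was called in none of the 3 (log2 fold changes of -0.28, 0.70 and 0.26, all with intervals across 0). No gene of the 8 passed the test of whether the difference between AΦ and monocytes was unequal for the cells numbered 1 and 2, where 1.08% of all genes did. The largest values of that test were 1.38 for Slc11a1 (95% CI 0.38 to 2.37, limma adjusted p = 0.233) and 0.87 for Slc11a2 (SE 0.31, limma adjusted p = 0.242).

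**Figure D2:**
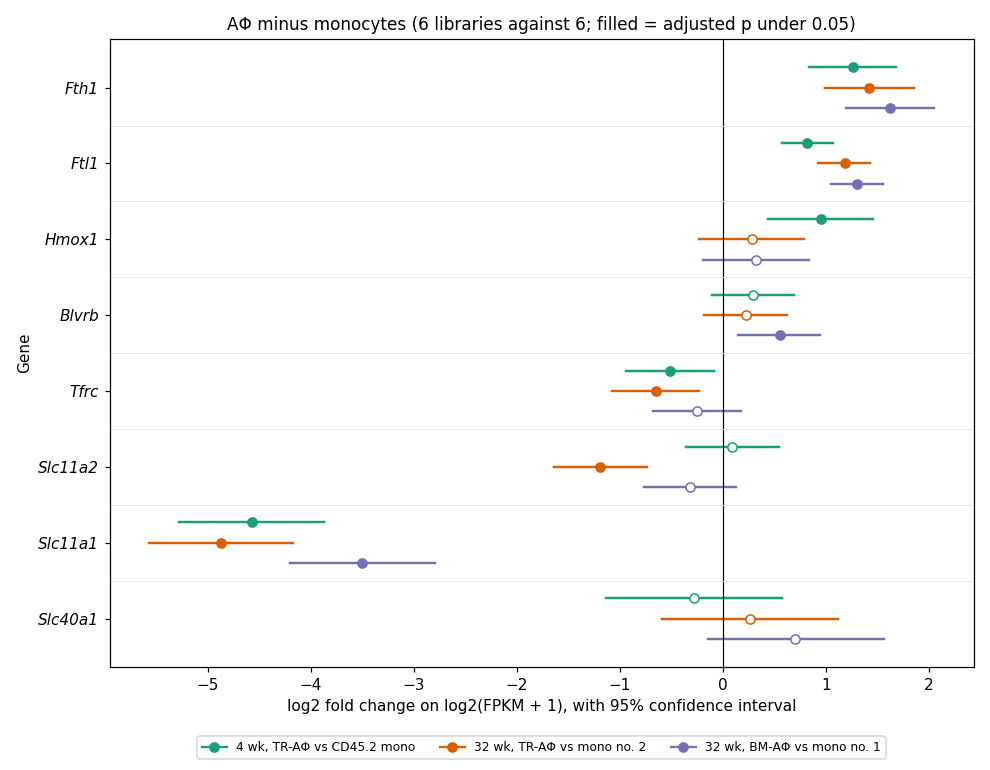
Log2 fold change of AΦ minus monocytes on log2(FPKM + 1), with 95% confidence intervals, for the 8 genes in 3 comparisons of 6 libraries against 6; filled points have an adjusted p under 0.05. Fth1 and Ftl1 lie to the right of 0 and Slc11a1 to the left in all 3, from -3.50 to -4.87 for Slc11a1.

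Among the other 57 genes of iron and haem handling listed, 42 were tested. Of these, 16 were higher and 11 lower in TR-AΦ at 4-weeks, 19 higher and 13 lower in BM-AΦ against monocytes 1, and 18 higher and 14 lower in TR-AΦ against monocytes 2. Of 10 genes of haem synthesis tested, 5 were called as higher in AΦ at 4-weeks and 7 in each comparison at 32-weeks, and 0 as lower. Of all genes, 22.6%, 27.1% and 23.6% were called as higher and 25.5%, 23.8% and 23.7% as lower. Whether haem synthesis stands apart from all genes was not tested. Alas1, the first and rate-limiting enzyme of haem synthesis outside the red cell lineage, was between 78.1 and 123 FPKM in AΦ and between 8.74 and 18.9 FPKM in monocytes. Its log2 fold changes were 2.86, 3.02 and 2.93. Ncoa4, the receptor that delivers ferritin to autophagy, moved the same way as the ferritin chains, by 2.51, 3.10 and 2.75 (each SE 0.22, limma adjusted p at most 1.75e-10). Blvra, the other biliverdin reductase, was called as higher in BM-AΦ by 2.08 (SE 0.15, limma adjusted p = 3.4e-12). For each comparison at most 5 called genes of these lists are named, those with the largest change. A gene named for a single comparison may therefore also have been called in another.

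Other genes of these lists were lower in AΦ. Hp, which encodes the haptoglobin that binds free haemoglobin, was between 0 and 11.3 FPKM in AΦ and between 47.2 and 317 FPKM in monocytes, with log2 fold changes of -6.16, -6.30 and -6.14. At 4-weeks Spic, a transcription factor needed by splenic macrophages that recycle red cell iron, was lower (log2 fold change -2.99, SE 0.27), and so was Hfe, an upstream regulator of hepcidin (-2.71, SE 0.19). At 32-weeks the transcription factor Maf was lower in BM-AΦ (-3.10) and in TR-AΦ (-4.69, each SE 0.28). Cd163, the receptor for haptoglobin bound to haemoglobin, was lower in TR-AΦ against monocytes 2 (-4.75, SE 0.41). It is among the interstitial and recycling macrophage markers, whose sums were 907 to 3493 FPKM in monocytes 2 and 329 to 1067 FPKM in monocytes 1. The part of these markers in the differences was not tested. Of the 8 regulators of Hmox1 and ferroportin transcription listed, 5 were called as lower in AΦ in each comparison, and 3, 2 and 2 as higher. Of all genes, 25.5%, 23.8% and 23.7% were called as lower and 22.6%, 27.1% and 23.6% as higher. Whether the regulators stand apart from all genes was not tested.

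The second comparison was between 32-weeks and 4-weeks. Hmox1 was lower at 32-weeks in TR-AΦ of FA mice, in TR-AΦ of PM2.5 mice and in CD45.2 monocytes. It was the only one of the 8 genes called in TR-AΦ, and in monocytes Tfrc and Slc11a1 were also lower and Slc11a2 was higher. The time points differ in the length of exposure, in the age of the mice and in the day of collection, and these cannot be told apart. In TR-AΦ 1 of 8 genes was called as lower in FA, against 0.782% of all genes tested (0.15% higher and 0.632% lower). In PM2.5 it was 1 of 8 as well, against 1.05% of all genes (0.268% higher and 0.782% lower). In monocytes 2 against the CD45.2 monocytes of 4-weeks, 4 of 8 genes were called (1 higher and 3 lower), against 14.9% of all genes (7.06% higher and 7.83% lower). The median log2 fold change of the 8 genes was -0.43 in FA TR-AΦ, 0.03 in PM2.5 TR-AΦ and -0.13 in monocytes, and those of all genes were 0.009, 0.035 and -0.048.

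In FA TR-AΦ, Hmox1 went from 288, 289 and 203 FPKM at 4-weeks to 74.7, 64.3 and 122 FPKM at 32-weeks. In PM2.5 TR-AΦ it went from 212, 240 and 209 FPKM to 66.8, 76.2 and 55.5 FPKM. There was no overlap in either exposure. Of the 8 genes 3 in FA and 4 in PM2.5 had none, against 15.6% and 18.3% of all genes tested. Hmox1 had a log2 fold change of -1.60 in FA (SE 0.23, limma adjusted p = 0.00435), or 3.04-fold lower, and -1.73 in PM2.5 (SE 0.23, limma adjusted p = 0.00158), or 3.31-fold lower. In a fit of only the 6 FA libraries the adjusted p was 0.16, with the same log2 fold change. The donor-derived BM-AΦ were sequenced at 32-weeks only, and their Hmox1 was 66.9, 54.8 and 81.2 FPKM with FA, and 47.2, 58.8 and 45.6 FPKM with PM2.5, within or below the range of the TR-AΦ of 32-weeks. In monocytes, Hmox1 was between 75 and 163 FPKM at 4-weeks and between 29.3 and 115 FPKM in monocytes 2 at 32-weeks, so the libraries overlapped. The mean was 128 FPKM at 4-weeks and 67.2 FPKM at 32-weeks, 2-fold lower on the log2 scale of the test (95% CI of the log2 fold change -1.65 to -0.35, limma adjusted p = 0.0389), and the call was lost without 7 of the 12 libraries in turn. The change in TR-AΦ was not shown to differ from that in monocytes (the test of that difference is given above). Red cell marker sums of TR-AΦ were set apart by replicate 2, at 5.38 (FA) and 3.96 (PM2.5) in replicate 2 of 4-weeks against 9.78 to 66.1 in the others. At 32-weeks replicate 2 had 42.5 and 64.7, and the other TR-AΦ had 2.66 to 4.6. Their part in the Hmox1 values was not tested, and without all libraries of replicate 2 Hmox1 was called in both exposures.

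Tfrc had a like pattern with smaller steps. FA TR-AΦ had 7.36, 10.4 and 7.93 FPKM at 4-weeks and 1.88, 6.68 and 4.62 FPKM at 32-weeks. PM2.5 TR-AΦ had 8.96, 7.14 and 5.93 FPKM at 4-weeks and 3.32, 2.84 and 4.94 FPKM at 32-weeks. The libraries did not overlap within an exposure, but the log2 fold changes of -0.92 (95% CI -1.61 to -0.24, limma adjusted p = 0.241) and -0.84 (95% CI -1.52 to -0.15, limma adjusted p = 0.225) were not called. In monocytes Tfrc was lower at 32-weeks (log2 fold change -0.74, SE 0.18, limma adjusted p = 0.0121). Slc11a1 of monocytes was lower as well (-0.59, SE 0.15, limma adjusted p = 0.0162), without overlap between 71.3 to 113 FPKM at 4-weeks and 48.3 to 69.4 FPKM in monocytes 2, and it was the 1 gene of the 8 with no overlap, where 7.72% of all genes had none. This call was lost after rescaling to TPM or quantile normalization. Monocyte marker sums moved with it, from 3338 to 4406 FPKM at 4-weeks to 1185 to 3389 FPKM in monocytes 2, and their part in the result was not tested.

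The change of Slc11a2 over time differed between the cell types. In monocytes of 4-weeks it was 5.42, 6.12 and 5.49 FPKM with FA, and 4.8, 4.15 and 3.87 FPKM with PM2.5. Monocytes 2 of 32-weeks had 16.8, 8.47 and 8.19 FPKM with FA, and 11.9, 14 and 5.37 FPKM with PM2.5. All but 1 of the 6 libraries of monocytes 2 were above every 4-weeks library, and the exception was PM2.5 replicate 2. For Slc11a2 in monocytes the log2 fold change was 0.91 (SE 0.22, limma adjusted p = 0.0131). In TR-AΦ it was -0.76 in FA (SE 0.29, limma adjusted p = 0.305) and 0.04 in PM2.5 (SE 0.29, limma adjusted p = 0.986). The difference between the change in TR-AΦ and that in monocytes was -1.27 (SE 0.31, limma adjusted p = 0.00941), the only one of the 8 genes past the test of that difference, where 7.88% of all genes were. Sums of interstitial and recycling macrophage markers moved with it, from 19 to 426 FPKM in CD45.2 monocytes of 4-weeks to 907 to 3493 FPKM in monocytes 2. The highest sums (3493 in FA replicate 0 and 3007 in PM2.5 replicate 1) were in the libraries with the highest Slc11a2 of each exposure, and their part in the result was not tested.

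No difference in ferritin over time passed the test. For Fth1 the log2 fold changes at 32-weeks were 0.29 in FA TR-AΦ (95% CI -0.13 to 0.70), 0.02 in PM2.5 TR-AΦ (95% CI -0.39 to 0.44) and -0.01 in monocytes (95% CI -0.57 to 0.55). For Ftl1 they were 0.36, 0.51 and 0.08, and none was called. Ftl1 of PM2.5 TR-AΦ did not overlap between 2226 to 3395 FPKM at 4-weeks and 3774 to 4140 FPKM at 32-weeks (limma adjusted p = 0.219). Blvrb of the same groups went from 3.7, 6.57 and 6.53 to 9.73, 12 and 8.28 FPKM, again without overlap, and was not called (0.76, SE 0.25, limma adjusted p = 0.169).

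**Figure D3:**
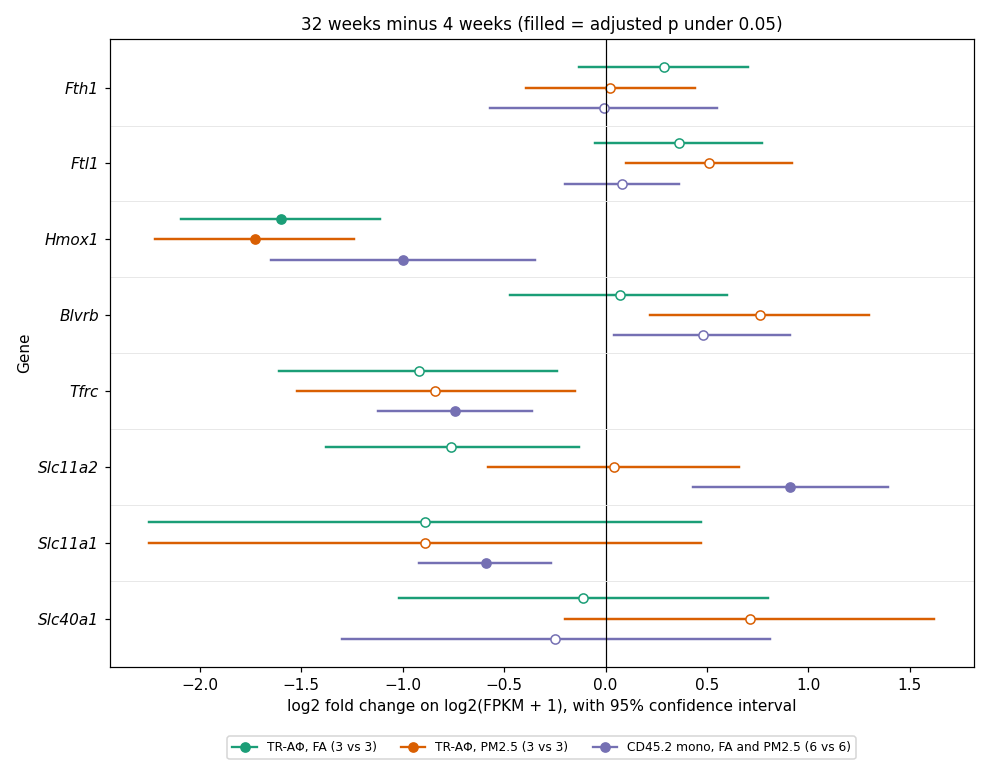
Log2 fold change of 32-weeks minus 4-weeks on log2(FPKM + 1), with 95% confidence intervals, for the 8 genes in TR-AΦ of FA mice and of PM2.5 mice (3 libraries against 3 each) and in CD45.2 monocytes (6 against 6, with the 32-weeks libraries those numbered 2); filled points have an adjusted p under 0.05. Hmox1 is below 0 and filled in all 3, at -1.60 and -1.73 in TR-AΦ, and Slc11a2 of monocytes lies at 0.91.

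Of the other iron and haem genes listed, 0 of 40 tested were called over time in TR-AΦ of either exposure (limma), with 7 at an unadjusted p under 0.05 in FA and 8 in PM2.5, where 12.1% and 15.2% of all genes tested were. In monocytes 4 of 41 were higher and 5 lower at 32-weeks, where 7.06% of all genes were higher and 7.83% lower. Cd163 was higher by 4.63 (SE 0.43, limma adjusted p = 4.87e-05), and it is among the recycling macrophage markers that stood high in monocytes 2, at 29.3 to 130 FPKM. Cp, which encodes the ferroxidase ceruloplasmin, was higher by 1.78 (SE 0.17) and Maf by 1.57 (SE 0.25). Spic was lower (-1.12, SE 0.27, limma adjusted p = 0.011), a call lost without all libraries of replicate 2 (-0.76, limma adjusted p = 0.101). Nfe2l2, which encodes the NRF2 factor that drives Hmox1 transcription, was lower too (-0.86, SE 0.24, limma adjusted p = 0.028), a call that was lost under 3 of 9 other settings and without 5 of the 12 libraries in turn.

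The third comparison was between cells of donor and host at 32-weeks. Between BM-AΦ and TR-AΦ 0 of the 8 genes were called by limma, against 0.316% of all genes tested (40 genes). At an unadjusted p under 0.05 there were 2 of the 8, where 7.45% of all genes were, and 0 of the 8 did not overlap, where 1.37% of all genes did not. The largest difference was in Slc11a1, at 5.45, 1.26 and 6.31 FPKM in FA BM-AΦ, and 3.03, 6.42 and 6.3 FPKM in PM2.5 BM-AΦ. TR-AΦ had 0.658, 0.647 and 1.21 FPKM with FA, and 0.302, 2.29 and 1.09 FPKM with PM2.5. All but 1 of the 6 BM-AΦ libraries were above every TR-AΦ library. With a log2 fold change of 1.46 (95% CI 0.50 to 2.42) Slc11a1 did not pass adjustment (limma adjusted p = 0.295). Monocyte marker sums were between 262 and 398 in BM-AΦ and between 105 and 379 in TR-AΦ. Interstitial and recycling macrophage marker sums were between 46.1 and 338 in BM-AΦ and between 24.8 and 80.7 in TR-AΦ, and dendritic cell marker sums between 10.7 and 50.9 and between 4.02 and 12.6. The BM-AΦ library lowest in Slc11a1 (FA replicate 1) was also the lowest BM-AΦ library in these other sums, and the part of the markers in the result was not tested. For Hmox1 it was -0.35 (limma adjusted p = 0.666), with a mean of 59.1 FPKM in BM-AΦ and 76.5 FPKM in TR-AΦ. For the ferritin chains it was -0.07 for Fth1 (95% CI -0.36 to 0.22) and -0.12 for Ftl1 (95% CI -0.41 to 0.17).

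Between monocytes 2 and monocytes 1, 0 of the 8 genes were called by limma either, against 0.669% of all genes (86 genes). At an unadjusted p under 0.05 there were 2, where 9.59% of all genes were, and 0 did not overlap, where 1.18% of all genes did not. Slc11a2 was 3.79 to 7.93 FPKM in monocytes 1 and 5.37 to 16.8 FPKM in monocytes 2, with a log2 fold change of 0.85 (95% CI 0.37 to 1.33, limma adjusted p = 0.123). Without PM2.5 replicate 2 of monocytes 2 it was 1.04 and was called (limma adjusted p = 0.0249). Blvrb had a log2 fold change of 0.53 (95% CI 0.10 to 0.97, limma adjusted p = 0.361). The macrophage marker sums given above differed between these monocytes too. Of the other iron and haem genes, Steap3, an endosomal ferrireductase, was higher in BM-AΦ by 2.09 (SE 0.22, limma adjusted p = 0.000384), a call lost with a block by exposure, time and replicate number (limma adjusted p = 0.0659). It was the 1 gene called of 40 tested, where 0.316% of all genes were called. In monocytes 2, 3 of 41 were called, where 0.669% of all genes were, with Cd163 higher by 3.57, Cp by 1.84 and Maf by 1.27. The call of Maf was lost under 5 of 10 other settings. It was also lost without single libraries, such as FA monocytes 2 replicate 0 (limma adjusted p = 0.0975).

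The fourth comparison, PM2.5 against FA, asked what breathing the particles changed. By limma 0 of the 8 genes were called in each of the 6 groups, and 0 in the means over the AΦ or the monocyte groups. Beside this, 0.0079% of all genes were called in TR-AΦ at 4-weeks, 0% in TR-AΦ and 0.0158% in BM-AΦ at 32-weeks, and 0.00778%, 0% and 0% in monocytes of 4-weeks, monocytes 2 and monocytes 1. For the means the shares were 0.0079% in AΦ and 0.00778% in monocytes. At an unadjusted p under 0.05 there was 1 gene of the 8, Blvrb, in TR-AΦ of 4-weeks, where 2.94% of all genes were. There were 0 of the 8 in TR-AΦ (3.13% of all genes) and BM-AΦ (2.05%) of 32-weeks, and 0 in monocytes of 4-weeks (2.12%), monocytes 2 (4.25%) and monocytes 1 (4.74%). For the AΦ mean it was 1, Hmox1 (2.95% of all genes), and for the monocyte mean 0 (5%). Of the interactions of PM2.5 with time or with origin, 0 were called for the 8 genes by limma and 0 had an unadjusted p under 0.05, and at most 0.0158% of all genes were called.

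Hmox1, the classical target of oxidative stress among these genes, was lower with PM2.5 than with FA on average in each of the 6 groups. The mean was 220 ± 17.5 FPKM with PM2.5 and 260 ± 49.3 FPKM with FA in TR-AΦ at 4-weeks (SD, n = 3). At 32-weeks it was 66.2 ± 10.4 with PM2.5 and 86.9 ± 30.5 with FA in TR-AΦ, and 50.5 ± 7.16 and 67.7 ± 13.2 FPKM in BM-AΦ. The libraries overlapped in all 3 AΦ groups. In monocytes it was 125 ± 40.2 with PM2.5 and 132 ± 49.3 with FA at 4-weeks, 48.7 ± 17 and 85.6 ± 36.3 in monocytes 2, and 35.7 ± 6.23 and 63.8 ± 26.2 FPKM in monocytes 1. Monocytes overlapped in the same way. Averaged over the AΦ groups the log2 fold change was -0.32 (95% CI -0.61 to -0.04, limma adjusted p = 1), and over the monocyte groups -0.52 (95% CI -1.05 to 0.01, limma adjusted p = 0.935). By the paper's account, populations of one exposure and time share mice. The groups averaged are then not independent, and these intervals may be too narrow. The sign shared by the 6 groups is likewise not that of 6 separate sets of mice. In all 4 populations of 32-weeks cells, FA replicate 2 was the highest of the 3 FA libraries in Hmox1 (122 FPKM in TR-AΦ, 81.2 in BM-AΦ, 115 in monocytes 2, 92.2 in monocytes 1), and PM2.5 replicate 2 was the lowest of the 3 PM2.5 libraries (55.5, 45.6, 29.3 and 30.4 FPKM). Without all libraries of replicate 2 the log2 fold change was -0.17 over the AΦ groups and -0.22 over the monocyte groups, and -0.18 in monocytes 2, where it was -0.76 with them. The sign of 2 of the 6 group values turned under other settings. Without replicate 2 the value of TR-AΦ at 32-weeks was 0.04, and after rescaling to TPM that of monocytes at 4-weeks was 0.16.

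In 3 cases FA and PM2.5 libraries did not overlap. Blvrb in TR-AΦ at 4-weeks was 3.7, 6.57 and 6.53 FPKM with PM2.5 and 8.17, 9.14 and 9.85 FPKM with FA, a log2 fold change of -0.64 (95% CI -1.18 to -0.10, limma adjusted p = 1). In TR-AΦ at 32-weeks Slc11a2 was 4.14, 4.91 and 5.9 FPKM with PM2.5 and 2.48, 2.74 and 4.08 FPKM with FA (0.55, 95% CI -0.07 to 1.18, limma adjusted p = 1). In monocytes at 4-weeks Slc11a2 went the other way, with 4.8, 4.15 and 3.87 FPKM against 5.42, 6.12 and 5.49 FPKM (-0.34, 95% CI -1.02 to 0.33, limma adjusted p = 1). Over all genes, 5.82%, 5.98% and 6.57% did not overlap in these comparisons. All 8 genes overlapped in BM-AΦ, monocytes 2 and monocytes 1, where 6.44%, 6.39% and 8.89% of all genes did not.

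Ferritin showed no call with PM2.5. The log2 fold changes of Ftl1 were between -0.15 and 0.12 over the 6 groups, and the widest of their 95% intervals reached -0.56 and 0.53. Those of Fth1 were 0.06, -0.20 and -0.15 in the AΦ groups and -0.18, -0.54 and -0.60 in the monocyte groups. The lowest Fth1 of monocytes 1 and of monocytes 2, 490 and 557 FPKM, were both in PM2.5 replicate 2. Of the other iron and haem genes listed, 0 of 40 tested in AΦ and 0 of 41 in monocytes were called with PM2.5 (limma). At most 2 in a group had an unadjusted p under 0.05, where 2.05% to 4.74% of all genes did.

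**Figure D4:**
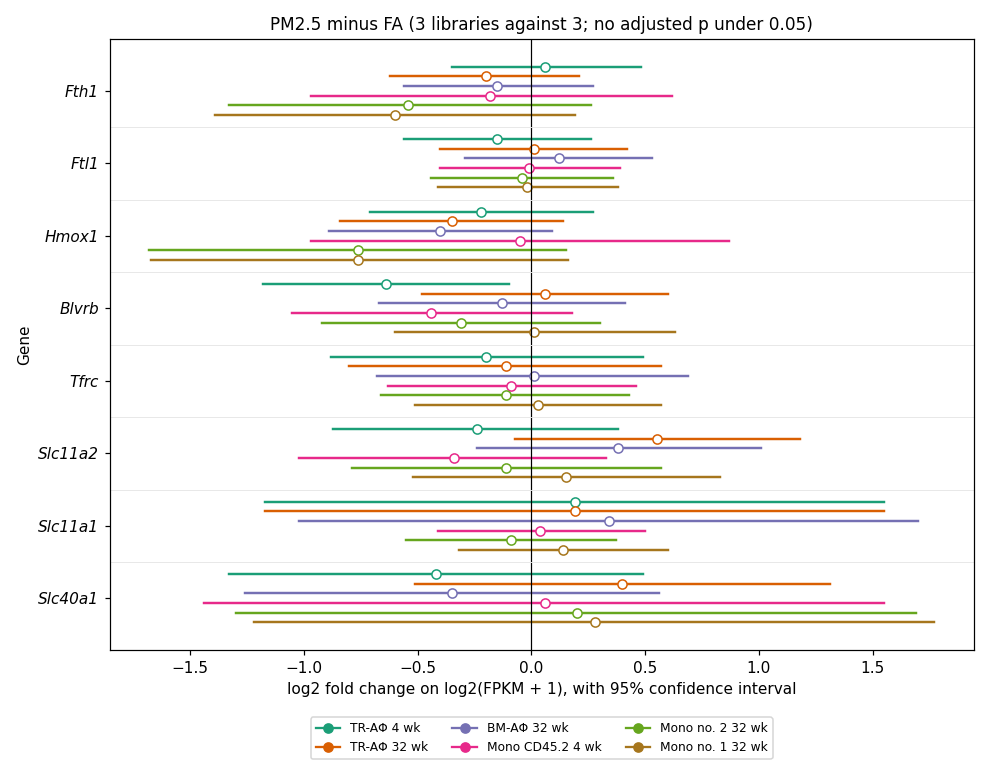
Log2 fold change of PM2.5 minus FA on log2(FPKM + 1), with 95% confidence intervals, for the 8 genes in 6 groups (3 libraries against 3 each); open points have an adjusted p of 0.05 or more, which all have. The 6 points of Hmox1 lie between -0.05 and -0.76, and every interval crosses 0 other than that of Blvrb in TR-AΦ at 4-weeks.

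Slc40a1, the exporter, was set apart by single libraries. In FA TR-AΦ of 4-weeks it was 0.782, 0.968 and 4.11 FPKM and in PM2.5 TR-AΦ 0.592, 0.722 and 1.73 FPKM. In monocytes of 4-weeks it was 0.711, 0.67 and 5.88 FPKM with FA and 0.538, 0.379 and 9.42 FPKM with PM2.5. In all 4 groups replicate 2 was the highest, and the others were below 1 FPKM. At 32-weeks the values were between 0.556 and 3.87 FPKM in AΦ and between 0 and 2.8 FPKM in monocytes. Neutrophil marker sums moved with the 4-weeks libraries of replicate 2, at 28.8 and 60.1 in TR-AΦ against 8.73 to 15.6 in the others, and at 343 and 1048 in monocytes against 24 to 51.7. Of the 8 neutrophil markers, Ly6g was listed at 0 in 3 of these 4 libraries, while S100a9 was between 13.8 and 792 FPKM in them. Other marker sums set the same libraries apart too. Lymphocyte marker sums were 7.65 and 4.77 in replicate 2 of TR-AΦ against 0.552 to 1.59 in the others. In monocytes they were 17 and 21 against 2 to 8.53. Red cell marker sums were lowest in replicate 2 of all 4 groups, at 1.7 to 5.38. The part of any of these markers in the Slc40a1 values was not tested. Without either monocyte library of replicate 2 the log2 fold change of AΦ against monocytes at 4-weeks turned from -0.28 to 0.05 or 0.19.

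For each gene the 2 genes outside the list with the most similar pattern were found by Pearson's r of log2(FPKM + 1) over the 36 libraries, among 13298 genes. The libraries fall into AΦ and monocytes, so for genes far apart between the cell types this description largely follows that difference. Slc11a1 was closest to Itgam and Adgre5 (both r = 0.99), genes of leukocyte adhesion with medians of 1.12 and 6.49 FPKM in AΦ and 89.7 and 423 FPKM in monocytes. Ftl1 was closest to Gm10116 (r = 0.98), its own copy, and to the glycolytic enzyme gene Aldoa (r = 0.97). Fth1 was closest to Plk3 (r = 0.95) and Dhrs7b (r = 0.93). Hmox1, with its high level at 4-weeks in both cell types, was closest to the neutrophil chemoattractant gene Cxcl2 (r = 0.89) and to Eldr (r = 0.88). Slc40a1 was closest to Cxcr2 (r = 0.84), a chemokine receptor of neutrophils, and to Ddx24 (r = 0.78). Cxcr2 is itself among the neutrophil markers summed above, and its median was 1.68 FPKM in AΦ and 0.507 FPKM in monocytes. Tfrc was closest to Eif5 and Nfkbia (both r = 0.79), Slc11a2 to Bmp2 (r = 0.81) and Gas6 (r = 0.80), and Blvrb to Tmem202 (r = 0.73) and Pccb (r = 0.67).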

How the data were processed

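RNA-seq was done on AΦ and monocytes sorted from lungs of chimeric mice exposed to FA or PM2.5, 36 libraries in 12 groups of 3 mice, made with a low-input stranded kit. The authors trimmed the reads, aligned them to mm10 with STAR and GENCODE, and deposited FPKM from Cufflinks, in which reads of near-identical genes can be split. No counts were analysed here, so the depth behind each level is not known. The p-values measure the spread between the libraries of a group. Tests between sorted populations, or averaged over them, counted libraries that by the paper's account share mice as independent. The sum of FPKM in a library ranged from 1839576 to 3339019. An exact 0 can be a failed estimate.

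Values were taken as log2(FPKM + 1) and fitted with limma 3.58.1 (R 4.3.3), with 1 mean per group and variances moderated with a trend. The pseudocount of 1 makes fold changes of low genes too small. A filter kept genes averaging 1 FPKM or more in the cell types fitted, 12665 genes for AΦ, 12856 for monocytes and 13307 for both, and all 8 genes passed. Adjustment (Benjamini-Hochberg) was within each of 16 comparisons and 6 interactions over all genes tested, called under 0.05. Libraries were treated as unpaired. Scripts were tested on simulated data. Groups did not overlap when the lowest library of one was above the highest of the other.

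The 8 genes and all gene lists were chosen with earlier results of these data known. Named were the 8 genes, the 2 genes most similar to each by Pearson's r, at most 5 other iron and haem genes per comparison (those called with the largest change), and markers used to check labels or set beside a result. The copy Gm10116 was named after its values were seen. Flvcr1, Flvcr2, Tf, Hjv, Ftmt and Siglec5 were not analysed here. UTR sequences were read from GENCODE transcripts on GRCm38. The settings varied were the pseudocount (0.1), the filter (none), the scaling (quantile, TPM, upper quartile), the groups fitted, robust variances, 2 forms of replicate block, and the libraries left out (each, and all of replicate 2).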

Additional observations from a re-analysis of the deposited data

Results flagged for a closer look

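The change of Slc11a2 from 4-weeks to 32-weeks differed between TR-AΦ and monocytes. The difference of the log2 fold changes was -1.27 (SE 0.31, 95% CI -1.91 to -0.63, limma adjusted p = 0.00941), from a higher level in monocytes 2 than in the CD45.2 monocytes of 4-weeks (0.91) beside values of -0.76 (FA) and 0.04 (PM2.5) in TR-AΦ. It remained past the threshold under all 9 other settings (-1.56 to -1.16) and without each of the 24 libraries in turn (-1.46 to -1.12). The 32-weeks monocytes enter this test by their number 2, and macrophage marker sums were higher in them, whose part was not tested.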

How the results depend on the processing

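The calls of Fth1, Ftl1 and Slc11a1 between AΦ and monocytes held under all settings run. The count of the 8 genes called moved by more than 1.5 times in 3 comparisons. It was 0 in FA TR-AΦ over time in a fit of only the groups compared (Hmox1, adjusted p = 0.16), 2 in monocytes over time after quantile normalization, and 0 to 1 between monocytes 2 and 1 with 1 library left out. It moved by at most 1 in the comparisons of AΦ with monocytes, over all settings to 4 to 5 at 4-weeks, 3 to 5 for BM-AΦ and 4 to 5 for TR-AΦ at 32-weeks. The cause was not tested, other than that the first fit has fewer samples.

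Signs turned in values that were not called. Without all libraries of replicate 2, Hmox1 with PM2.5 in TR-AΦ at 32-weeks was 0.04 and Slc11a2 in TR-AΦ against monocytes at 4-weeks was -0.08. As TPM, Hmox1 with PM2.5 in monocytes at 4-weeks was 0.16, and in BM-AΦ against monocytes 1 Tfrc was 0.07 and Slc11a2 was 0.01. By upper quartile, Hmox1 with PM2.5 in monocytes at 4-weeks was 0.00 and Slc11a2 of PM2.5 TR-AΦ over time was -0.14. With 1 library left out these ranged from -0.41 to 0.22 for Hmox1 with PM2.5 in monocytes at 4-weeks, from -0.54 to 0.19 for Slc40a1 and -0.07 to 0.20 for Slc11a2 between TR-AΦ and monocytes at 4-weeks, and from -0.18 to 0.34 for Slc11a2 of PM2.5 TR-AΦ over time. TPM moved the median of all genes by over 0.1 in the comparisons of AΦ with monocytes, to 0.173, 0.331 and 0.140, and the calls there that were higher in AΦ from 47.0%, 53.2% and 49.9% to 66.2%, 75.4% and 63.2%.

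Single calls were lost for Tfrc in TR-AΦ against monocytes 2 (adjusted p = 0.085 as TPM, 0.0517 with only the groups compared, 0.0543 without FA TR-AΦ replicate 0) and, over time in monocytes, for Tfrc (0.0873 without all of replicate 2) and Hmox1 (0.0593 to 0.12 under 4 settings). As TPM, Hmox1 in BM-AΦ (0.0112) and Blvrb in TR-AΦ at 4-weeks (0.0246) were called. At a pseudocount of 0.1, Slc40a1 was called in BM-AΦ against monocytes 1 (0.0151).

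The replicate numbers were not taken to pair the samples, since the labels give no shared mouse, batch or day and not every pair correlated above 0.1. Deviations from group means of libraries with the same number and exposure correlated at -0.0161 to 0.0766 at 4-weeks and -0.0415 to 0.155 at 32-weeks. Across exposures, and so between different mice, those with the same number at 4-weeks correlated at -0.0868 to 0.209, with 4 of 12 above 0.1, and at 32-weeks at -0.0822 to 0.128, with 2 of 48 above it. Of different numbers, 1 of 24 pairs across exposures at 4-weeks was above 0.1. Medians for the same number against different numbers at 4-weeks were 0.0542 against -0.012 within an exposure and 0.0808 against -0.027 across exposures. At 32-weeks they were 0.0334 against -0.0222 and 0.00871 against -0.00134. Red cell marker sums also set replicate 2 apart at both times. Whether the numbers stand for a batch was not tested. With a replicate block, Slc40a1 in BM-AΦ against monocytes 1 was called (0.70, adjusted p = 0.0283 by number and 0.0247 by exposure, time and number), Steap3 in BM-AΦ against TR-AΦ (0.0659) and Maf in monocytes 2 against 1 (0.0533) were not called by the second form, and genes called over time in TR-AΦ went from 99 to 211 in FA and from 133 to 408 in PM2.5.

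Over all genes, calls over time in TR-AΦ went to 15 in FA and 18 in PM2.5 in fits of only the groups compared, and in monocytes from 1914 to 1020 without all libraries of replicate 2. Depth limits the low genes Slc40a1, Slc11a2, Tfrc and Blvrb most, and it could not be measured from FPKM.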
